A study of Mus musculus with 19 samples.

Results

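The nuclear oxidative phosphorylation genes encode the subunits of the mitochondrial respiratory chain and of ATP synthase whose mRNAs are made in the nucleus. Members were taken by symbol from the deposited lists of translated open reading frames (ORFs). The symbols were those of Nduf genes with a letter a, b, c, s or v and a digit, Sdha to Sdhd, Uqcr, Cyc1, Cycs, Cox4 to Cox8 and Atp5 genes. This gave 66 of the 7379 genes named in the lists. Of these 66, 33 belong to complex I (NADH dehydrogenase), 4 to complex II (succinate dehydrogenase), 7 to complex III (the cytochrome bc complex), 9 to complex IV (cytochrome c oxidase) and 12 to complex V (ATP synthase). The remaining one is Cox7a2l, known as a factor of respiratory supercomplexes and no subunit of complex IV itself. Its activity in these organoids was not measured. LUAD lists alone named 31 members, AT2 lists alone named 1, and both named 34, so the choice of members leaned to genes read in LUAD. A further 23 RefSeq genes with matching symbols are not analysed here.

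The organoids came from C57BL/6 mice and were of 2 kinds, lung adenocarcinoma (LUAD) organoids grown from tumours and organoids of alveolar type 2 (AT2) cells, the surfactant-making cells of the alveolus. All groups were plated for 48 hours and given 100 µM cycloheximide, which arrests ribosomes, for 5 min. Ribosome footprints (4 LUAD and 3 AT2 libraries) were collected with RiboLace, which pulls down translating ribosomes. RNA was measured in 4 LUAD and 3 AT2 libraries, and translated ORFs were listed for 3 LUAD libraries, titled KP, and 2 AT2 libraries. The labels give no genotype, age or sex. The series design names 3 independent tumour-derived organoids and 2 independent AT2 cultures, but nothing says which footprint or RNA libraries came from separate cultures, so a p-value here reflects the spread among these libraries alone, which may be technical.

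Footprint libraries held 4.80 to 14.2 M estimated counts in LUAD and 3.03 to 3.83 M in AT2, and RNA libraries held 27.2 to 33.2 M in LUAD and 4.12 to 10.2 M in AT2. Levels are given as CPM, the counts of a gene when the counts paired with genes are brought to 1000000 by TMM scaling. LUAD libraries 1 and 2 stood apart from LUAD libraries 3 and 4 in both assays. AT2 footprint library 1 stood apart from the other 2, and the gene Mettl26 held 52.12% of its paired counts, against 0.2614 to 1.367% in LUAD and 1.988 to 4.142% in the other AT2 footprint libraries. Summed CPM of 7 alveolar type 2 markers, such as Sftpb and Abca3, was 289 to 401 in LUAD footprints and 1570 to 2950 in AT2 footprints. Summed CPM of 5 alveolar type 1 markers was 179 to 202 in LUAD footprints and 932 to 2890 in AT2 footprints. The macrophage genes Mrc1 and Cd14 together had 77.6 to 101 CPM in LUAD footprints and 8.68 to 8.89 CPM in AT2 footprints, and the fibroblast gene Bgn had 41.6 to 104 CPM and 2.65 to 3.56 CPM. These 2 macrophage genes were all that could be read of 9 markers, and Bgn all of 8. Their part in the results below was not tested.

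Oxidative phosphorylation passes electrons from NADH and succinate through complexes I to IV to oxygen, and ATP synthase uses the proton gradient this builds. Complexes I, III, IV and V hold subunits encoded in the mitochondrial genome beside the nuclear ones, while complex II is wholly nuclear. NRF1 and the ETS factor GABPA are known to activate many nuclear genes of the chain, and alveolar type 2 cells, which make and recycle surfactant, are rich in mitochondria.

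The promoters of 4 members are printed because these members stand for the patterns described below. Ndufv3 and Ndufb6 were lower in LUAD footprints and RNA, Cox6a1 was lower in footprints alone, and Atp5b passed no test. Each run is the 250 bases before the gene's start, from RefSeq on build GRCm38.p6, 5′ to 3′ on the gene's strand. Capitals mark matches, on either strand, to the ETS motif CCGGAAG and to the NRF1 motif, which reads GCGCA, any base, GCGC.
Ndufv3 promoter, chr17:31519865-31520114, plus strand: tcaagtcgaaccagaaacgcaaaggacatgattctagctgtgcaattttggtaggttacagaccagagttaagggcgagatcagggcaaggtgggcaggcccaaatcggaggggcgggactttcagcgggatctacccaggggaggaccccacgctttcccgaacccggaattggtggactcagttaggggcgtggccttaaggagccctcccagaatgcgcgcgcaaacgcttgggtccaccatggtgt
Ndufb6 promoter, chr4:40279422-40279671, minus strand: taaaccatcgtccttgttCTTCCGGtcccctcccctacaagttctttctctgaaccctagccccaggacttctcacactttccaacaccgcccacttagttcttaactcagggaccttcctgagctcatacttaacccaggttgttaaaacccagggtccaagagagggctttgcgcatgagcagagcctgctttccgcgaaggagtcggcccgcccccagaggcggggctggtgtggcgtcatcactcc
Cox6a1 promoter, chr5:115348959-115349208, minus strand: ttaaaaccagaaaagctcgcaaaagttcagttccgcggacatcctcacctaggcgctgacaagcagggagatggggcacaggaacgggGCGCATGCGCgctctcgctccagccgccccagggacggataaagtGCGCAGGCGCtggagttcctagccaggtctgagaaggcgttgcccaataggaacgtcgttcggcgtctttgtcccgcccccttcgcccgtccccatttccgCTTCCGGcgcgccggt
Atp5b promoter, chr10:128083057-128083306, plus strand: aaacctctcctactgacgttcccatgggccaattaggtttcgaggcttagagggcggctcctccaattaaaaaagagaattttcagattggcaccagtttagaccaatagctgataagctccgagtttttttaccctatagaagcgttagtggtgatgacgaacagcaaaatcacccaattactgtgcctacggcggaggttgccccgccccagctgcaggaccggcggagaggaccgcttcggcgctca
The Cox6a1 run held NRF1 matches starting 162 and 117 bases before the start, the first of them on both strands, and an ETS match 16 bases before it. The Ndufb6 run held an ETS match 232 bases before the start. The Ndufv3 and Atp5b runs held none of these letters. Windows of 300 bases, with 50 bases past the start, were at hand for 54 of the 66 members. The NRF1 motif was found in 22.2% of these 54, in 12.5% of 5455 genes tested here and in 4.78% of all 27025 windows. The ETS motif was found in 22.2% of members, 21.2% of tested genes and 9.12% of all windows. A window with both motifs was counted under each. The SP1 box GGGCGG was found in 40.7% of members, 70.1% of tested genes and 35.9% of all windows.

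The main question was whether translation and RNA of these genes differed between tumour and normal organoids. Footprints of 10 of the 59 tested members were lower in LUAD and those of 0 were higher by edgeR's quasi-likelihood test, at an adjusted p under 0.05 (Benjamini-Hochberg over 6811 genes). At an unadjusted p under 0.05, which 35.0% of all genes had, 14 members were lower and 0 higher. DESeq2, which called 28.9% of all genes, called 12 lower and 0 higher. The test of limma on log2(TPM + 1) called 14.3% of all genes and 0 members. Among all genes tested, 21.2% were called, 11.8% as lower and 9.46% as higher in LUAD, so the share of members called lower was near the background. In RNA, 5 of 63 tested members were lower and 0 higher by the same test, against 37.1% of all 6937 genes called, 18.1% lower and 19.1% higher. At an unadjusted p under 0.05 (48.0% of all genes), 8 members were lower and 2 higher in RNA. DESeq2 (44.0% of all genes) called 6 lower and 2 higher, among them Ndufa2, and limma on TPM (34.3% of all genes) called 12 lower and 2 higher, Ndufa2 and Sdhc. The median log2 fold change of members was -0.29 in footprints, where that of all genes was -0.02, and 0.11 in RNA, where that of all genes was 0.04. The members' footprint median lay between -0.53 and -0.13 under all settings tried but deposited TPM, where it was 0.46 and that of all genes 0.61. In RNA it lay between -0.19, with a trend on transcript length removed, and 0.24, with scaling on all transcripts, where that of all genes was 0.16. In these bulk libraries, fewer cells of a type and less RNA per cell cannot be told apart. Together 12 members were called lower in at least one assay, 3 of them in both, 7 in footprints alone and 2 in RNA alone. With the library number as a block, a fit described further on, RNA of 3 of these 7 (Ndufa7, Ndufa11 and Ndufb10) was called lower too. With the trend on transcript length removed, which called 22 members lower in RNA, all of these 7 but Cox6a1 were among them. Groups did not overlap, with LUAD below AT2, for 13 members in footprints, while 17.3% of all genes showed this, and LUAD lay above AT2 for 0 members, where 18.4% of all genes did. In RNA, LUAD lay below AT2 without overlap for 8 members (21.1% of all genes) and above for 2 (24.3% of all genes).

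**Figure D1:**
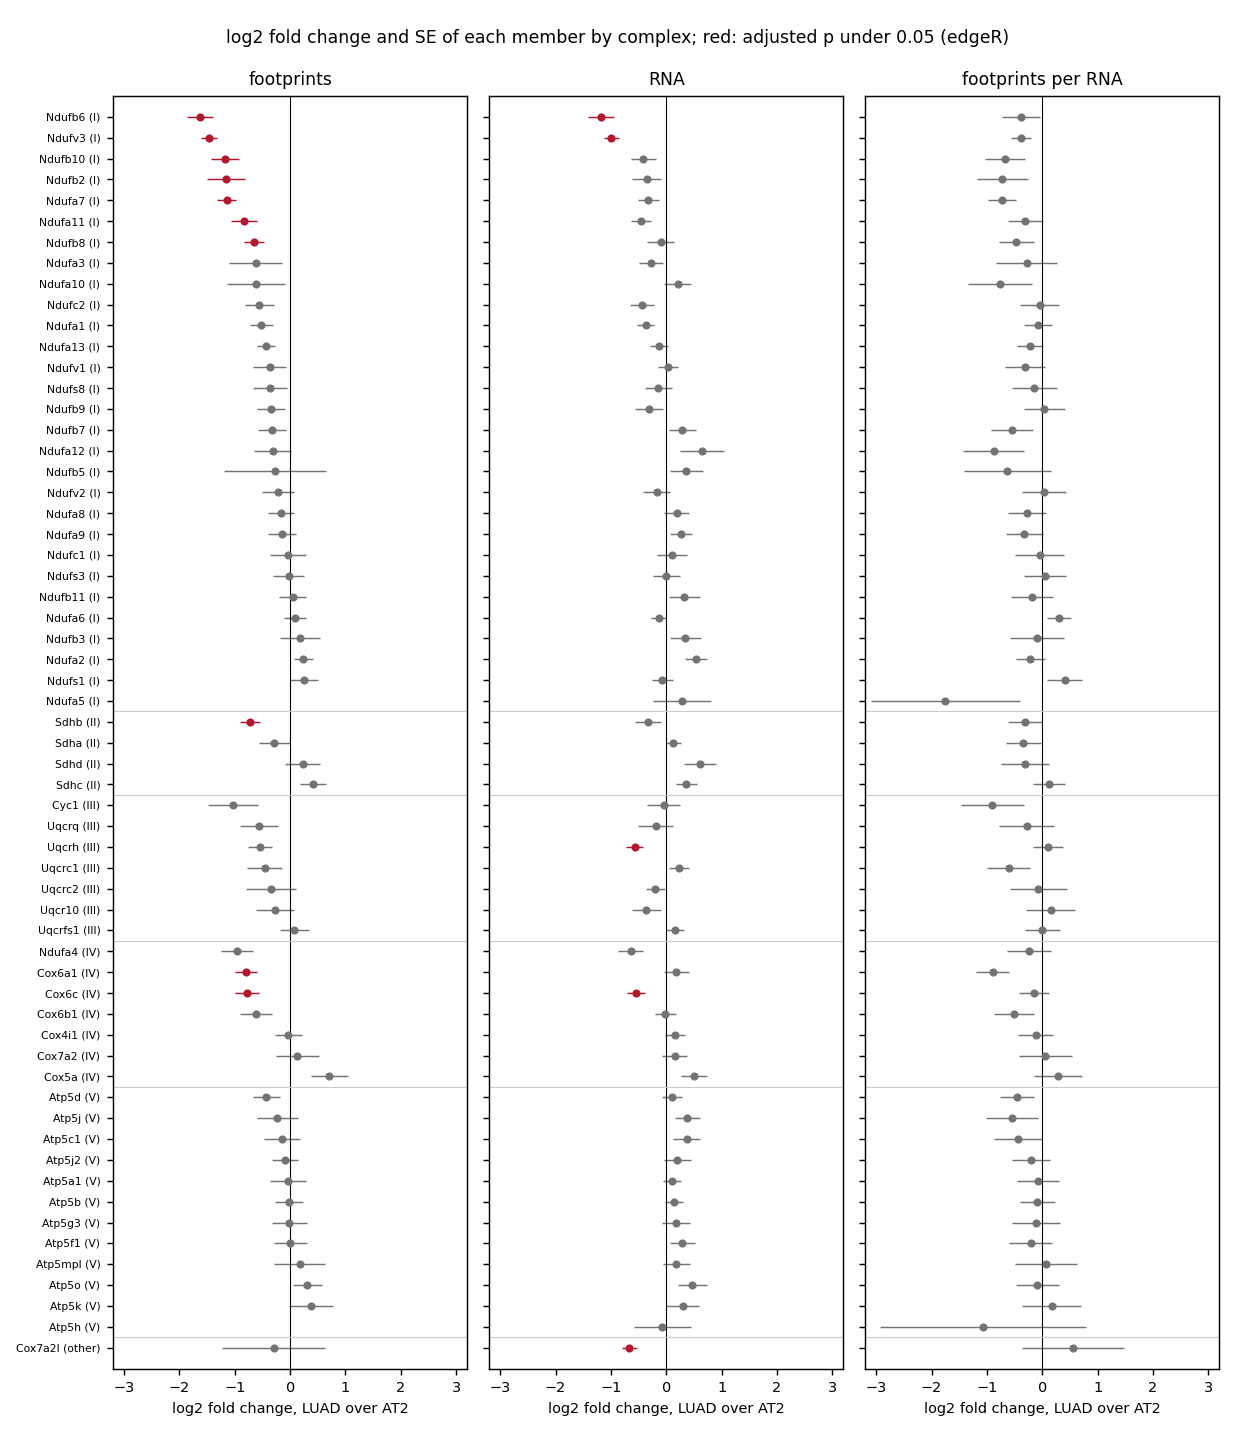
The log2 fold change (LUAD over AT2) of each member, with its standard error as a bar, is shown for footprints, RNA and footprints per RNA, grouped by complex. Red points passed adjusted p under 0.05 and all lie left of 0, while the points of complex V scatter about 0 in footprints. Cox5b and Ndufs4 are left out because their footprints were near 0, and 1 further member is not drawn.

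Complex I held 7 of the 10 lower members in footprints and 29 of the 59 tested. All 7 were accessory subunits, which surround the catalytic core and made up 23 of these 29. Ndufv3, Ndufb6, Ndufa7, Ndufb10 and Ndufa11 lie on chromosomes 17 and 4, whose genes were lower as a whole, as described below. Of the tested core subunits only Ndufv2 lies there, and subunit kind and chromosome were not separated. Ndufv3, an accessory subunit of the NADH-binding module (chr17:31520115-31531326), had 76.4, 78.2, 76.5 and 76.4 CPM in the LUAD footprint libraries, against 222, 202 and 210 CPM in AT2. Every LUAD library lay far below every AT2 library. The log2 fold change was -1.46 ± 0.14 (SE; edgeR adjusted p = 0.000587). Its RNA stood at 100, 113, 127 and 122 CPM in LUAD, against 231, 227 and 231 CPM in AT2, again without overlap (-0.99 ± 0.14, edgeR adjusted p = 0.00132). Ndufv3 has a long and a short coding isoform, with 1407 and 315 coding bases in the files. The short one had 54.0, 53.2, 57.4 and 56.4 footprint CPM in LUAD and 151, 176 and 168 CPM in AT2. The long one held 29.3, 29.4, 23.6 and 25.9% of the gene's footprints in LUAD and 28.0, 12.5 and 16.6% in AT2, shares that overlapped.

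Ndufb6, an accessory subunit of the membrane arm (chr4:40270591-40279421), had 35.5, 29.2, 39.6 and 35.6 footprint CPM in LUAD, against 80.0, 106 and 139 CPM in AT2. The groups lay apart (log2 fold change -1.64 ± 0.24 (SE), edgeR adjusted p = 0.00277). Its RNA had 48.0, 45.1, 66.8 and 71.8 CPM in LUAD, against 108, 120 and 166 CPM in AT2 (-1.18 ± 0.24, edgeR adjusted p = 0.00631). The lowest AT2 library exceeded the highest LUAD library in both assays. From 67.0 to 84.9% of its footprints were assigned to a transcript of 480 bases that held at most 3.99% of its RNA, so its isoforms were not compared.

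Ndufa7, an accessory subunit of the NADH-binding arm (chr17:33824572-33838316), had 146, 121, 150 and 134 footprint CPM in LUAD, against 347, 264 and 303 CPM in AT2. The AT2 libraries all lay well above the LUAD ones (log2 fold change -1.14 ± 0.17 (SE), edgeR adjusted p = 0.00346). Its RNA overlapped between groups, with 288, 268, 379 and 401 CPM in LUAD and 369, 413 and 475 CPM in AT2 (-0.33, edgeR adjusted p = 0.208, and 0.0339 with the library number as a block). Ndufb10, of the membrane arm (chr17:24722060-24724423), had 75.1, 58.6, 83.4 and 97.8 footprint CPM in LUAD and 129, 231 and 172 CPM in AT2. This was a log2 fold change of -1.17 ± 0.25 (SE; edgeR adjusted p = 0.0147, and 0.0513 without AT2 footprint library 2). The accessory subunits Ndufa11, Ndufb2 and Ndufb8, named after their values were seen, also fell in footprints, by 0.84, 1.16 and 0.65 on the log2 scale. Their edgeR adjusted p was 0.0428, 0.046 and 0.037, and each of these calls was kept without AT2 library 1 and lost without any other footprint library. Without each library in turn, Ndufv3, Ndufb6 and Ndufa7 were called lower every time.

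The core subunits of complex I carry its flavin and iron-sulfur clusters and the quinone site. None of the 6 tested core subunits was called by edgeR, DESeq2 or limma in footprints, and 0 passed an unadjusted p under 0.05. Without AT2 footprint library 1, edgeR called Ndufv1, the NADH-binding flavoprotein, lower (-0.66, adjusted p = 0.0396), and with a term, added after the data were seen, for the 2 sets of libraries that stood apart it called Ndufs1 higher (0.37, adjusted p = 0.0447). The core subunits' median footprint log2 fold change was -0.13, where that of the 23 tested accessory subunits was -0.44. RNA of the accessory subunit Ndufa2 was higher in every LUAD library than in any AT2 library, short of the threshold (0.53, edgeR adjusted p = 0.0646, and 0.0468 without AT2 RNA library 3). Ndufs4 had at most 0.756 footprint CPM in any library and 4.70 to 35.8 RNA CPM. The 1 listed transcript of Ndufs4 is a coding one. Its annotated ORF had 138 in-frame P-sites (ribosome positions) in LUAD ORF library 1, unlike its near-0 footprint counts, and the reason was not tested. Low values cover listed transcripts only, and the 1 listed transcript of Ndufs7 is no coding transcript in the annotation.

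Complex II links the citric acid cycle to the chain. Its iron-sulfur subunit Sdhb (chr4:140961271-140979198) had 105, 85.0, 120 and 108 footprint CPM in LUAD, against 150, 183 and 185 CPM in AT2, a log2 fold change of -0.73 ± 0.18 (SE; edgeR adjusted p = 0.0254). LUAD lay below AT2 in every footprint library, but the call was kept without AT2 footprint library 1 and lost without any other. In RNA, LUAD libraries 1 and 2 (105 and 113 CPM) lay below the AT2 libraries (170, 178 and 198 CPM), while LUAD libraries 3 and 4 (181 and 180 CPM) lay within them. The flavoprotein Sdha had 348, 315, 431 and 423 footprint CPM in LUAD and 271, 564 and 551 CPM in AT2, so AT2 library 1 lay below and the other AT2 libraries above LUAD. The membrane anchors Sdhc and Sdhd had positive log2 fold changes in footprints (0.41 and 0.22) and RNA (0.36 and 0.61). None passed in the main edgeR test, with all libraries and no added term (adjusted p from 0.131 to 0.655). Sdhc RNA was called higher without AT2 RNA library 3 (0.52), with scaling on all transcripts (0.50) and with limma on TPM (0.44). With the term for library sets, RNA of both Sdhc (0.30) and Sdhd (0.42) was called higher.

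In complex III, 0 of 7 members passed in footprints in the main edgeR test, and 1 had an unadjusted p under 0.05. Without AT2 footprint library 1, edgeR called 3 of them lower, Cyc1 (-1.38, adjusted p = 0.0238), the core protein Uqcrc1 (-0.76, adjusted p = 0.0377) and Uqcrh (-0.69, adjusted p = 0.0366). The member with the low unadjusted p, Uqcrh, the hinge subunit that aids the contact with cytochrome c (chr4:116066965-116075070), had 188, 168, 206 and 214 footprint CPM in LUAD and 222, 369 and 256 CPM in AT2 (log2 fold change -0.54, edgeR adjusted p = 0.112). It was called lower in RNA, with 191, 214, 260 and 247 CPM in LUAD and 312, 357 and 343 CPM in AT2 (-0.57 ± 0.16 (SE), edgeR adjusted p = 0.0223). LUAD lay below AT2 in every library of both assays, and the RNA call was lost without AT2 RNA library 2 or LUAD RNA library 1 or 2. Cyc1, the cytochrome c1 subunit, had 22.8, 30.8, 52.7 and 48.9 footprint CPM in LUAD and 32.0, 90.5 and 113 CPM in AT2. AT2 library 1 lay within the LUAD range, and the change did not pass (-1.03, edgeR adjusted p = 0.145), although it did with only the transcripts of annotated coding ORFs summed (-3.22, edgeR adjusted p = 0.00696). Uqcrq, with the highest footprint level per length of the complex, had 829 ± 324 CPM per kilobase of coding sequence in LUAD and 1218 ± 344 in AT2 (SD, n = 4 and 3), and Uqcrc2, one of the core proteins, had 65.6 ± 19.8 and 82.7 ± 47.5.

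Complex IV held 2 lower members, Cox6a1 in footprints alone and Cox6c in both assays. Cox6a1, the broadly expressed form of subunit VIa (chr5:115345652-115348958), had 178, 128, 182 and 185 footprint CPM in LUAD, against 273, 266 and 336 CPM in AT2 (log2 fold change -0.80 ± 0.20 (SE), edgeR adjusted p = 0.0236, kept without AT2 library 1 or 2 and lost without any other). Its RNA had 485, 457, 776 and 759 CPM in LUAD and 531, 558 and 550 CPM in AT2, so LUAD libraries 1 and 2 lay below AT2 and libraries 3 and 4 above it (0.18, edgeR adjusted p = 0.554). Cox6c (chr15:35931976-35938246), another small nuclear subunit, had 190, 198, 246 and 265 footprint CPM in LUAD and 323, 487 and 347 CPM in AT2 (-0.78 ± 0.22, edgeR adjusted p = 0.0372), and 253, 254, 319 and 330 RNA CPM in LUAD and 376, 406 and 486 CPM in AT2 (-0.55 ± 0.17, edgeR adjusted p = 0.0337). The groups overlapped in neither assay, but the footprint call was kept only without AT2 footprint library 1 and the RNA call only without LUAD RNA library 4, of the 7 libraries left out in turn in each. Ndufa4, once counted with complex I, had 54.1, 66.9, 112 and 95.01 footprint CPM in LUAD and 123, 203 and 153 CPM in AT2, a change of -0.96 that missed the threshold (edgeR adjusted p = 0.0509, and 0.0331 without AT2 footprint library 1). Its RNA had 277 ± 76.4 CPM in LUAD and 432 ± 48.2 CPM in AT2 (SD), without overlap, and also missed it (-0.64, edgeR adjusted p = 0.0565). DESeq2 called Ndufa4 lower in both footprints (adjusted p = 0.0228) and RNA (adjusted p = 0.0269).

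The other named subunits of complex IV were not called in the main edgeR test. Cox4i1, a subunit present in most tissues, had 848, 685, 951 and 1002 footprint CPM in LUAD and 623, 1010 and 1047 CPM in AT2, with AT2 library 1 below and the others above LUAD. Cox6b1 had log2 fold changes of -0.61 in footprints and -0.02 in RNA. Its footprints were called lower without AT2 library 1 (-0.85, edgeR adjusted p = 0.0408) and with the length trend removed (-0.59, edgeR adjusted p = 0.0159). Cox7a2 had log2 fold changes of 0.13 in footprints and 0.15 in RNA. Cox5b had at most 3.85 footprint CPM but 27.8 to 86.5 RNA CPM, and Cox8a at most 1.67 RNA CPM. Cox7a2l, the supercomplex factor (chr17:83501917-83514333), had 469, 469, 452 and 441 RNA CPM in LUAD and 665, 702 and 820 CPM in AT2, without overlap (-0.67 ± 0.14 (SE), edgeR adjusted p = 0.00641). Its footprints were few, with 23.3, 32.4, 8.88 and 8.72 CPM in LUAD and 59.6, 7.03 and 4.16 CPM in AT2, and AT2 library 1 alone was the highest.

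**Figure D2:**
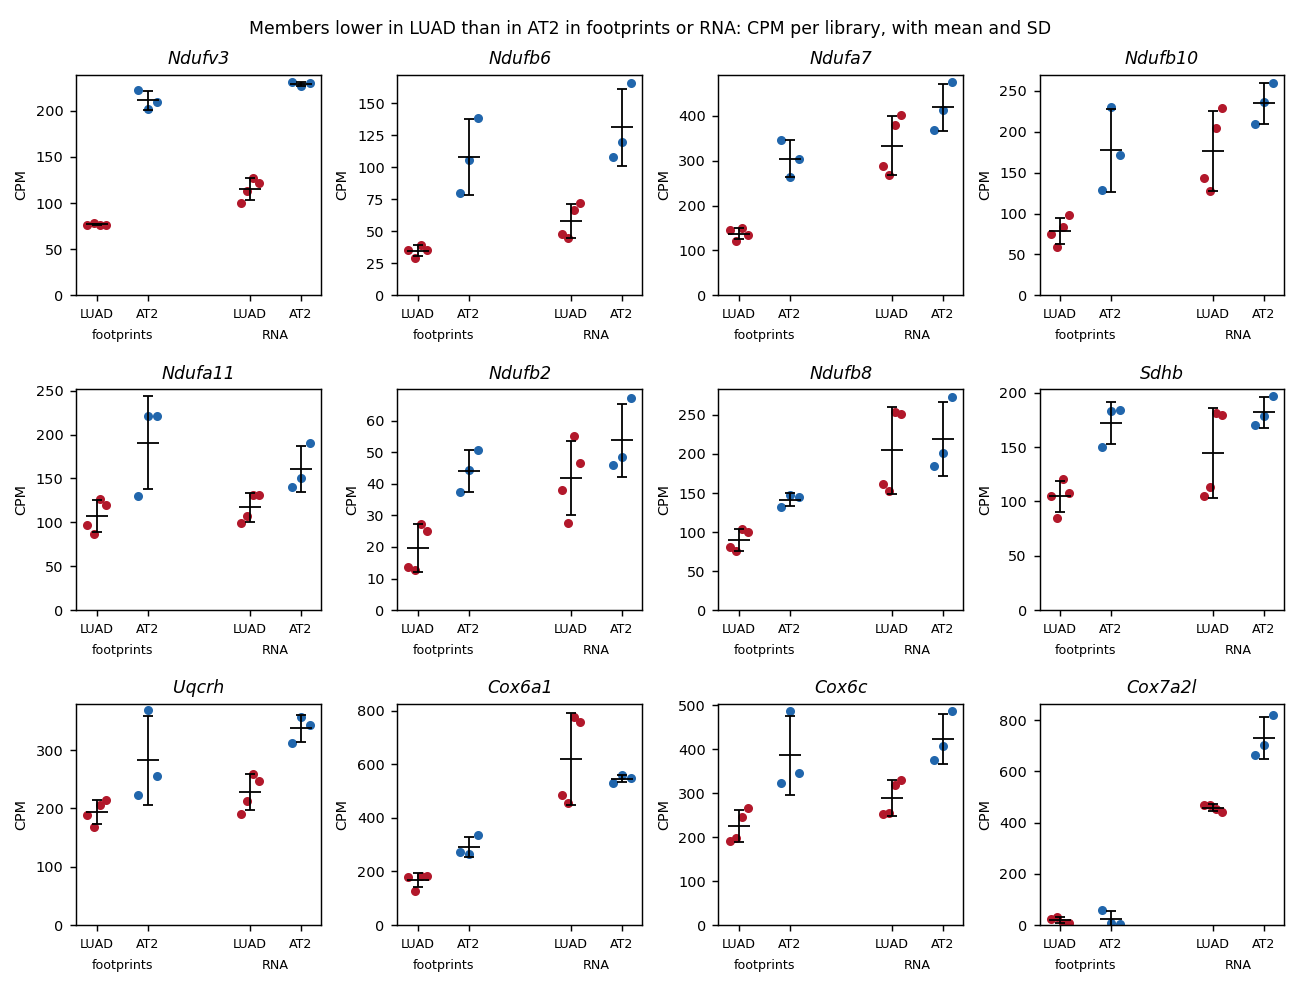
CPM of the 12 members called lower in footprints or RNA, with 1 point per library, the group mean and SD (4 LUAD libraries in red, 3 AT2 libraries in blue). Footprints of Ndufv3 sit between 76.4 and 78.2 CPM in LUAD and between 202 and 222 CPM in AT2, while RNA of Cox6a1 spreads over the AT2 values.

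ATP synthase, complex V, showed no call in either assay in the main edgeR test. Of its 11 members tested in footprints and 12 in RNA, 0 passed by edgeR, DESeq2 or limma, and 0 had an unadjusted p under 0.05. Its median log2 fold change was -0.02 in footprints and 0.19 in RNA. Atp5b, the catalytic beta subunit (chr10:128083307-128090388), had 1802, 1779, 2381 and 2610 footprint CPM in LUAD and 1525, 2541 and 2471 CPM in AT2. Its RNA had 2011, 1941, 2400 and 2654 CPM in LUAD and 1927, 1876 and 2317 CPM in AT2. The groups overlapped in both assays (-0.02 and 0.14). RNA of Atp5j, a subunit of the stalk, was called higher without AT2 RNA library 3 (0.67, edgeR adjusted p = 0.0177). With the term for library sets, a fit that called 42.2% of all genes in footprints and 53.9% in RNA, Atp5k and Atp5o were higher in footprints and Atp5c1, Atp5f1, Atp5j and Atp5o in RNA. Atp5g3, which encodes subunit c of the rotor, had 424, 443, 677 and 690 footprint CPM in LUAD and 330, 688 and 675 CPM in AT2. In both genes LUAD libraries 1 and 2 were the lowest of their group, as was AT2 footprint library 1. Atp5h had at most 9.83 footprint CPM.

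Per kilobase of coding sequence, the highest LUAD footprint level was that of Atp5j2, an Fo subunit. It had 2522 ± 339 CPM in LUAD and 2674 ± 710 in AT2 (SD, n = 4 and 3). Next in LUAD came Cox4i1 at 1711 ± 275 and 1754 ± 462, Atp5b at 1348 ± 263 and 1370 ± 357, and Atp5g3 at 1310 ± 340 and 1325 ± 477. These pairs did not differ beyond their spread. Cox6c, called lower in both assays, had 974 ± 158 CPM in LUAD but 1669 ± 384 in AT2, above Atp5b and Atp5g3 there. The median member had 608 CPM per kilobase in LUAD and 567 in AT2 footprints for complex V, 466 and 643 for complex IV, 234 and 222 for complex III, 164 and 257 for complex I, and 131 and 153 for complex II. Complex V had the highest median in LUAD and complex IV in AT2, and complex II the lowest in both. Summed over members, complex I had 2558, 2554, 3425 and 3331 footprint CPM in LUAD and 3053, 4336 and 4233 CPM in AT2, and complex V had 4270, 4239, 6085 and 6388 CPM in LUAD and 3439, 6377 and 6184 CPM in AT2. LUAD libraries 1 and 2 and AT2 library 1 were the low ones in both sums, and all sums overlapped between groups.

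**Figure D3:**
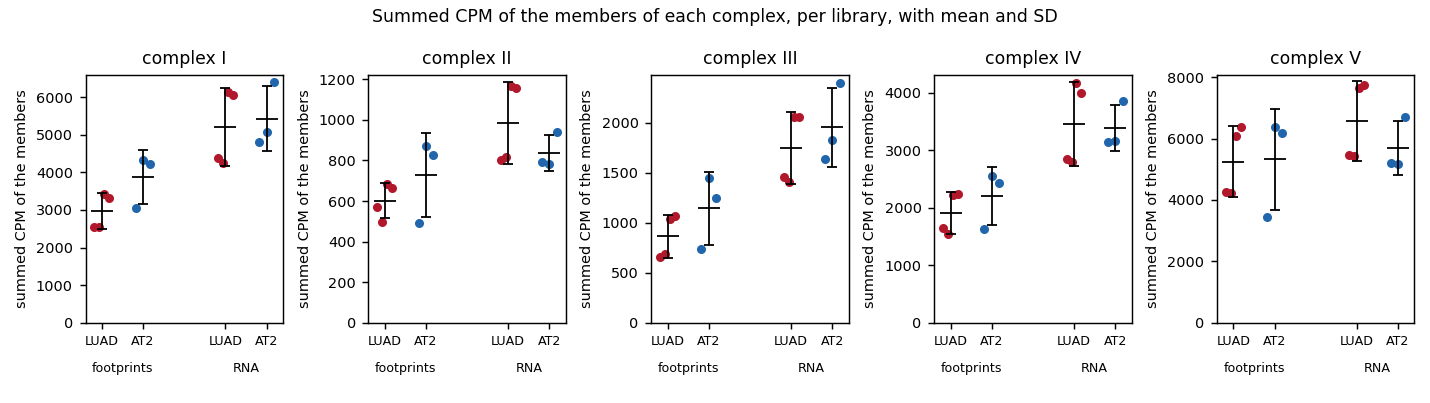
Summed CPM of the members of each complex, with 1 point per library, the group mean and SD (4 LUAD libraries in red, 3 AT2 libraries in blue, axes from 0). In each complex LUAD libraries 1 and 2 lie below LUAD libraries 3 and 4, and every pair of groups overlaps.

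Most of the lower members lay on 2 chromosomes, a pattern noticed in these data and described without a test. All 3 members on chromosome 4 (Ndufb6, Sdhb and Uqcrh) and 5 of 6 on chromosome 17 (Ndufv3, Ndufa7, Ndufb10, Ndufa11 and Cox7a2l) were called lower in at least one assay. On all other chromosomes together this held for 4 of 54 tested members (Cox6a1, Ndufb2, Cox6c and Ndufb8). The other genes of these chromosomes were shifted the same way, and so, by less in footprints, were those of chromosomes 15, 7, 11 and 19. The median of all tested genes was -0.34 in footprints and -0.31 in RNA on chromosome 15, which holds Cox6c, -0.31 and -0.15 on chromosome 7, and -0.21 and -0.18 on chromosome 11. For chromosome 19, which holds Ndufb8, it was -0.21 in footprints and -0.08 in RNA. The 381 tested genes of chromosome 4 that are no members had a median footprint log2 fold change of -0.63, and 80.1% of them lay below 0, where 50.9% of all genes did. For the 337 such genes of chromosome 17 the median was -0.43 and 70.9% lay below 0. In RNA the medians were -0.57 for chromosome 4 and -0.32 for chromosome 17. Members included, 29.9% of chromosome 4 genes were called lower and 0.521% higher in footprints, and 40.5% lower and 4.12% higher in RNA. On chromosome 17, 23.3% were called lower and 5.83% higher in footprints.

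The shift of chromosome 4 was alike in the libraries of each group. The median deviation of chromosome 4 genes from their mean over the 7 footprint libraries was -0.21, -0.24, -0.26 and -0.25 (log2) in LUAD and 0.40, 0.38 and 0.36 in AT2, and in RNA -0.20, -0.26, -0.26 and -0.29 in LUAD and 0.37, 0.34 and 0.33 in AT2. LUAD libraries 1 and 2, which stood apart from 3 and 4 in member sums, did not stand apart here. For chromosome 17 the footprint values were -0.09, -0.13, -0.16 and -0.15 in LUAD and 0.45, 0.19 and 0.17 in AT2, with AT2 library 1 far above the other AT2 libraries, and the RNA values were -0.11, -0.11, -0.11 and -0.09 in LUAD and 0.18, 0.22 and 0.15 in AT2. Ndufb6 and Ndufv3 lay further down than their chromosomes, whereas Uqcrh RNA (-0.57) sat at the chromosome 4 median and Sdhb footprints (-0.73) close to it. With each library scaled to its chromosome medians, a setting added after the data were seen that called 17.5% of all genes in footprints and 33.6% in RNA, 5 of the 10 footprint calls were kept (Ndufv3, Ndufb6, Ndufa7, Cox6a1 and Ndufb2) and 2 were gained (Ndufa1 and Ndufa4). Ndufv3 then stood at -1.04 ± 0.15 (SE) in footprints (edgeR adjusted p = 0.00306), and Ndufb6 at -1.001 ± 0.24 (edgeR adjusted p = 0.0242). Of the 5 RNA calls, only that of Ndufv3 was kept (-0.69, edgeR adjusted p = 0.00689) and that of Ndufa4 was gained. Uqcrh RNA turned to 0.05 (edgeR adjusted p = 0.858) and Sdhb footprints moved to -0.09 (edgeR adjusted p = 0.795). What sets the chromosome shift was not tested.

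**Figure D4:**
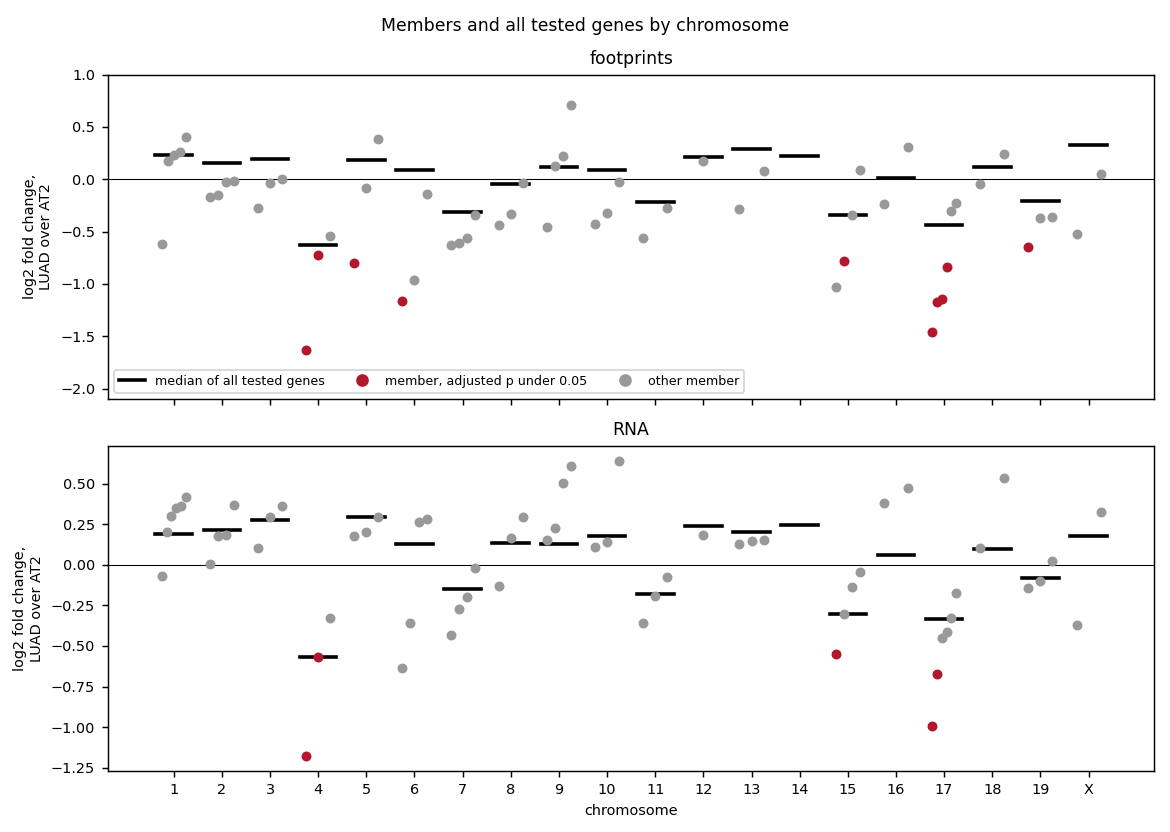
Log2 fold change (LUAD over AT2) of each member by chromosome in footprints (top) and RNA (bottom), with the median of all tested genes of the chromosome as a black bar. Members that passed adjusted p under 0.05 are red. The black bars are lowest on chromosomes 4 (-0.63 and -0.57) and 17 (-0.44 and -0.33), where 8 of the 12 called members lie.

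Whether footprints changed beyond RNA was tested as the interaction of kind and assay over 14 libraries. No member of the 63 tested passed in either direction by edgeR, where 0.706% of 7078 genes did, 0.268% as higher and 0.438% as lower. DESeq2 called 0 as well (5.11% of all genes), and so did limma on TPM (0.127%). At an unadjusted p under 0.05, 3 members were lower (Cox6a1, Ndufa7 and Ndufs4) and 1 higher (Cox5b), while 13.8% of all genes had such a p. Cox6a1 had a log2 change of the ratio of -0.90 ± 0.30 (SE; edgeR adjusted p = 0.193) and Ndufa7 of -0.73 ± 0.26 (edgeR adjusted p = 0.2). Ndufs4 and Cox5b had footprints near 0. Of the 59 members tested in both assays, 51 (86.4%) had a lower log2 fold change in footprints than in RNA, where 53.9% of 6707 genes did. The median change of the ratio over members was -0.22, where that of all genes was 0.01. This median was 0.10 after a trend with transcript length was removed, where all genes had 0.05, and 0.49 on deposited TPM, where all genes had 0.61. In the other settings tried it lay between -0.44, without AT2 footprint library 1, and -0.01, with the term for library sets, where all genes had 0.02. Members are short, with a median transcript length of 781 bases against 2856 for all genes tested in RNA.

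**Figure D5:**
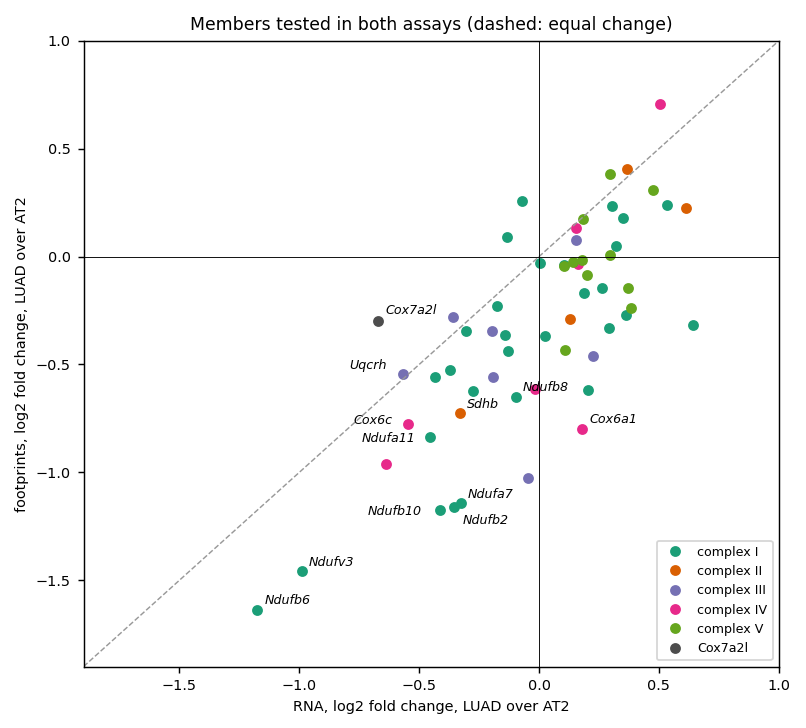
Log2 fold change (LUAD over AT2) of the 59 members tested in both assays, footprints on the vertical and RNA on the horizontal axis, coloured by complex. The dashed line marks equal change, and 51 members lie below it. The 12 called members are named.

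AT2 and LUAD RNA libraries that share a number deviated together, though some that do not share one did so as much, and the RNA test was also run with the number as a block. LUAD RNA library 4 shares its number with no AT2 library, so it adds nothing to the comparison in this fit. The blocked test called 12 members lower and 2 higher, Ndufa12 (0.56) and Ndufa2 (0.44), while 37.6% of all genes were called. All 5 main calls were kept, and the members gained were Ndufa11, Ndufa4, Ndufa7, Ndufb10, Ndufb9, Ndufc2 and Uqcr10. Leaving out AT2 footprint library 1, the one dominated by Mettl26, moved the footprint count to 19 lower members (27.2% of all genes were then called), and leaving out any other footprint library to 4. The 10 called with all libraries were among the 19, and the 9 gained were Cox6b1, Cyc1, Ndufa1, Ndufa13, Ndufa4, Ndufc2, Ndufv1, Uqcrc1 and Uqcrh. In RNA, leaving out AT2 library 3 gave 5 higher members (Atp5j, Ndufa12, Ndufa2, Ndufb3 and Sdhc), with 48.0% of all genes called. Without LUAD RNA library 2 Ndufa2 was called higher, and without LUAD RNA library 3 Ndufa4 was called lower.

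Genes that serve the same pathway were counted in the same fits, in which 9.46% of all genes were called higher and 11.8% lower in footprints, and 19.1% higher and 18.1% lower in RNA. The chromosome shift described above was not taken into account for the genes of these lists, and its part in their changes was not tested. Of 24 tested assembly factors, Taco1, a translational activator of a mitochondrially encoded complex IV subunit, was the only one called by edgeR. It was lower in LUAD in footprints (14.2 ± 2.73 CPM, against 35.3 ± 13.8 CPM in AT2, SD, n = 4 and 3; -1.33, edgeR adjusted p = 0.0309) and RNA (-1.05, edgeR adjusted p = 0.0416). Among 15 genes of the citric acid cycle and pyruvate dehydrogenase, footprints of 2 were lower and of 0 higher. One of the 2 was Ogdh, a subunit of the oxoglutarate dehydrogenase complex (174 ± 33.6 CPM in LUAD, 361 ± 21.4 CPM in AT2, SD, n = 4 and 3). In RNA 2 genes were lower, among them Ogdh (-1.62), and 4 genes were higher, among them the isocitrate dehydrogenase subunits Idh3g (0.92), Idh3b (0.96) and the NADP-dependent enzyme Idh2 (1.05).

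Among 9 regulators, the activators Gabpa and Nrf1 were higher in LUAD footprints. Gabpa had 133 ± 7.34 CPM in LUAD and 45.6 ± 7.49 CPM in AT2 (SD, n = 4 and 3; 1.56, edgeR adjusted p = 0.00115), and Nrf1 had 39.7 ± 3.43 CPM and 20.9 ± 3.80 CPM (0.94, edgeR adjusted p = 0.0281). In RNA Nrf1 (0.87) and Tfam (1.44), which packages and transcribes mitochondrial DNA, were higher, and Polg (-1.50), the mitochondrial DNA polymerase, was lower. Of 18 tested import genes, Gfer (-1.35) and Tomm6 (-1.04) were lower in footprints, and in RNA Hspa9 (0.84) and Timm21 (2.20) were higher and Timm22 (-1.19) lower. Of 9 carriers, 3 were higher in RNA, the citrate carrier Slc25a1 (0.72), the ATP and ADP carrier Slc25a5 (1.32) and the outer membrane channel Vdac2 (0.57). Cytosolic ribosomal proteins, another set of short abundant mRNAs, had a median log2 fold change of 0.17 in footprints and 0.59 in RNA, with 1 and 8 of 23 members higher. Of the 5 mitochondrially encoded genes in the lists, mt-Nd1 RNA was lower (6058 ± 1133 CPM in LUAD, 9152 ± 1672 CPM in AT2; -0.60, edgeR adjusted p = 0.0407), and the median footprint change was -1.36 with 0 called. Whether the footprint reads of these 5 genes come from translating ribosomes was not tested.

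The ORF lists gave a second view of translation. Annotated coding ORFs of 50, 33 and 14 members were listed in the LUAD libraries, against 10 and 20 in the AT2 libraries. These were 1.07, 1.04 and 0.67% of all genes with an annotated ORF in LUAD and 1.12 and 1.11% in AT2. The number of listed members thus went with the number of listed genes, except in LUAD library 3. It listed 14 members among 2090 such genes, where AT2 library 2 listed 20 among 1799. With 3 against 2 libraries no test was made. The annotated ORFs of Atp5a1, Ndufa13, Ndufs8 and Ndufv2 were listed in 4 libraries each, those of 3 members (Atp5j, Ndufa6 and Ndufs7) in none, and no member was listed in all. Of the P-sites (ribosome positions) on members' annotated ORFs, 52.0, 49.2 and 47.3% lay in frame in LUAD and 45.0 and 48.6% in AT2. Other genes had 47.8, 46.8 and 44.0% in LUAD and 46.5 and 47.4% in AT2. The ORF libraries differed in depth. P-sites on annotated ORFs of other genes numbered 3574847, 623826 and 493222 in LUAD and 76541 and 213271 in AT2. The counts of single genes given here are not scaled for this, so they do not compare LUAD with AT2. The annotated ORF of Ndufv3 was listed in LUAD library 1 alone, the deepest, with 135 in-frame P-sites. Atp5b had 2017, 505 and 0 in-frame P-sites in LUAD and 0 and 234 in AT2.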

How the data were processed

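Ribosome footprints and RNA were measured in 14 libraries of LUAD and AT2 organoids, and ORFs were listed for 5 more. For each transcript the deposited footprint and RNA tables give estimated counts and TPM, and kallisto is named for them in the submitters' processing notes. The deposited ORF lists hold P-site counts by reading frame, RPKM values and p-values of each ORF, on mm10 per the submitters' processing notes. Their RPKM and p-values were not used, and neither the ORF caller nor strand is given in the sources used. The labels' protocols describe footprint preparation for RNA libraries too, so the RNA preparation is unknown here.

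The ORF lists pair 22871 transcripts with genes, of which 22509 are among the 118489 of the tables and carry 65.0 to 70.0% of the counts of a library. Estimated counts of these transcripts were added up by gene, rounded, and tested in edgeR 4.0.16 (R 4.3.3) with TMM, filterByExpr and the robust quasi-likelihood test, Benjamini-Hochberg adjusted over all genes. Footprints per RNA were tested as an interaction. Of the 66 members, Ndufb1-ps is not in the tables. Atp5h, Cox5b, Cox8a, Ndufa5, Ndufs4 and Ndufs7 were too low to test in footprints, as were Cox8a and Ndufs7 in RNA. Gene coordinates are those of RefSeq on GRCm38.p6, the build mm10 names. Reads of pseudogene copies could not be told apart. Some genes that enter the counts are not reported here by name.

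Members, lists and tests were chosen with earlier results of these data known. Named members are those past the test (up to 4 per complex, direction and comparison), the highest and lowest footprint TPM of a complex, all of complex II, Cycs, Cyc1, Ndufv3, Ndufb6 and paralog pairs, and in other lists up to 3 genes per direction. LUAD and AT2 RNA libraries sharing a number deviated together (r = 0.288, 0.235 and 0.338 over genes), which by the rule used, r over 0.1 in each pair, makes them pairs. This comes from the data alone, and some libraries of different numbers correlated as much (LUAD 1 with AT2 2 at 0.253, LUAD 2 with AT2 1 at 0.246, LUAD 4 with AT2 3 at 0.342). Footprint libraries did not (r = 0.425, -0.359 and 0.338). Replicates all differed by more than sampling noise (lowest mean chi-square 5.40). Alternatives were DESeq2 1.42.0, limma 3.58.1 on log2(TPM + 1), other scalings, no filter, a transcript length trend removed, annotated ORF transcripts only, a replicate block and each library left out. A library set term, removal of Mettl26 and chromosome medians were added after the data were seen. Simulations with 200 changed genes recovered, in footprints (6811 genes), 4.0% of those changed 2-fold and 69.0% of those changed 4-fold, with 5 false calls. In RNA (6937 genes) this was 21.0% and 77.0%, with 4, and for the ratio (7078 genes) 3.0% and 35.0%, with 1.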

Additional observations from a re-analysis of the deposited data

Results flagged for a closer look

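In groups of 4 libraries, the highest or lowest value was compared with the others by Dixon's ratio of gap to range, in 45 groups of named members, of which chance is expected to flag about 1 in 20. The test picked out 2. Footprints of Cox6a1 in LUAD library 2 stood at 127.7 CPM, below the 177.6 to 184.5 CPM of the other 3 LUAD libraries. Footprints of Ndufv3 in LUAD library 2 stood at 78.22 CPM, above 76.35 to 76.54 CPM in the others, a gap that is small beside the AT2 values of 202 to 222 CPM. Without LUAD footprint library 2 the call of Cox6a1 was lost and that of Ndufv3 was kept.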

How the results depend on the processing

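The 10 lower members in footprints became 6 with scaling on all transcripts (21.1% of all genes called), 5 with the replicate block (13.7%), 0 with limma on deposited TPM (14.3%), 18 with a library set term (42.2%) and 6 without Mettl26 (20.7%), and from 4 to 19 with each library left out (12.4 to 27.2%). Higher members in footprints were 1 (Cox5a) with the length trend removed and 4 with the set term. In RNA, the 5 lower members became 12 with the replicate block (37.6% of all genes called), 22 with the length trend removed (39.8%), 12 with limma (34.3%), 18 with the set term (53.9%), 2 with chromosome medians removed (33.6%), and 3 to 5 with each library left out (23.4 to 48.0%). Higher members in RNA were 2 with DESeq2, 1 with upper-quartile scaling, 4 with scaling on all transcripts, 2 with the block, 2 with limma, 10 with the set term and from 0 to 5 with each library left out (5 without AT2 RNA library 3). In footprints per RNA, 1 member was lower with annotated coding transcripts only (Cyc1) and 1 with the set term (Ndufa7). The numbers do not pair the footprint libraries, so their block is a value only, and in RNA libraries of other numbers correlated as much as those of the same number; the block changed no count in footprints per RNA.

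The sign turned, with a call in one of the settings, in 3 cases: Ndufb8 footprints on TPM (0.017), Ndufs3 RNA with the length trend removed (-0.40) and Uqcrh RNA with chromosome medians removed (0.045). On TPM the median of all genes moved to 0.606 in footprints, and members stood at 0.463, below it. The cause of the differences between settings was not tested. Ndufv3, Ndufb6 and Ndufa7 kept their footprint calls in 17 of 18 alternatives, all but TPM, and Ndufv3 RNA in all 18. The sets are LUAD libraries 1 and 2 with AT2 footprint library 1 and AT2 RNA libraries 1 and 2, against the rest. The AT2 footprint libraries were the shallowest, and the part of depth in the calls was not tested. The simulations mostly missed changes of 2-fold, but they changed far fewer genes than were called in footprints or RNA. The shares they recovered cannot be carried over to the data, where 21.2% of genes were called in footprints and 37.1% in RNA. Some members with changes under 2-fold were called, such as Ndufb8 in footprints (-0.65) and Cox6c in RNA (-0.55).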
